A study of Mus musculus with 4 samples.

Results

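Autophagy and mitophagy genes were followed in the mouse heart, as 10 genes chosen by symbol and role, with no threshold on their values: Ulk1, Becn1, Map1lc3a, Map1lc3b, Gabarapl1, Sqstm1, Bnip3, Bnip3l, Tfeb and Ctsl. They were chosen with earlier results of these data known, so their counts and medians beside those of all genes are a description. All 10 were found among the 23282 genes with a value in the 4 heart libraries. The study crossed high-intensity aerobic exercise (E) with cancer (T) in CDF1 mice, 10 per group, and asked how exercise and cancer change gene expression in the heart. Mice of the E-&T- group (control) had neither treatment, those of the E+&T- group (exercised) ran on a treadmill, those of the E-&T+ group (tumor) received CT26 murine colorectal carcinoma cells through the tail vein, and those of the E+&T+ group (exercised tumor) received the cells and ran. Values are given in the order control, exercised, tumor and exercised tumor unless another is stated. According to the methods the mice were male and 4 weeks old at purchase, and tissues were taken at the end of the experiment. The labels give postnatal day 28 for every sample, which is the age at purchase and not that at tissue collection. Each group had 1 heart library. The study names 1 representative mouse per group as the source of the muscle RNA and describes the heart as analysed in a similar way, without stating the number of hearts. There was thus no replicate and no test across groups, and the difference between any pair of libraries includes the unknown spread between animals.

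Macroautophagy encloses cytoplasm in a double membrane that fuses with the lysosome, where hydrolases digest the contents. The kinase Ulk1 starts the process, the Becn1 complex makes the lipid signal on the membrane, proteins of the ATG8 family (Map1lc3a, Map1lc3b and Gabarapl1 among them) are attached to it, and Sqstm1 (p62) links ubiquitinated cargo to them. Bnip3 and Bnip3l (Nix) are receptors on the outer mitochondrial membrane that pass mitochondria to this pathway, the transcription factor Tfeb activates genes of autophagy and of the lysosome, and Ctsl is cathepsin L, a lysosomal cysteine protease. In the heart the pathway is known for its induction by fasting and ischemia and for mitochondrial turnover, and Bnip3l is also known for clearing mitochondria from maturing red cells. Messenger RNA levels give no measure of the flux through the pathway, since ATG8 proteins and Sqstm1 are themselves degraded in it.

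The deposited values are log2(normalized read count + 1), from which the reads behind each value were worked back. The 4 libraries held 6595408 to 11545945 reads, and the 10 genes held 60 to 8197 reads in a library. QuantSeq reads come from 3′ ends, 1 per transcript molecule copied whatever its length, so that read counts of different genes were compared without a length correction. The exercised tumor library stood apart: globin genes took 37.3% of its reads, against 7.86% to 8.76% in the other libraries. Both comparisons that use the exercised tumor heart rest on that library, and the comparisons exercised vs. control hearts and tumor vs. control hearts do not use it. The cardiomyocyte markers were present as the label of the tissue requires, with a summed level of 421470 to 476101 normalized reads, and none of the 8 differed 2-fold in a comparison. A gene was called changed when it differed at least 2-fold and reached at least 4 normalized reads in at least 1 of the 2 libraries compared. The study names a 2-fold change and a normalized read count of 4, but not in how many libraries, nor whether the 4 stands for reads or for a log2 value. With a minimum of 16 normalized reads, a log2 value of about 4, the share of all genes called was 6.59% in exercised vs. control hearts, 13.5% in exercised tumor vs. tumor hearts, 22.7% in tumor vs. control hearts and 17.4% in exercised tumor vs. exercised hearts, and the calls of the 10 genes were as with the minimum of 4. Intervals printed below are at 95%, were made by the Clopper-Pearson method from the reads of a gene in a pair of libraries, and cover counting error only. In a whole tissue, fewer cells of a type and less RNA per cell cannot be told apart.

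Promoter sequences are shown for Bnip3, Ctsl and Sqstm1, the genes among those called in tumor vs. control hearts for which a window was at hand. Each runs from 250 bases before to 50 bases after a RefSeq transcript start in GRCm38.p6 (mm10), 5′ to 3′ on the gene's strand. Capitals mark CACGTG, the E-box at the core of the element that Tfeb recognizes. The Bnip3 window lies on the minus strand at chr7:138909457-138909756, the Ctsl window on the minus strand at chr13:64370471-64370770, and the Sqstm1 window on the minus strand at chr11:50210771-50211070.
Bnip3: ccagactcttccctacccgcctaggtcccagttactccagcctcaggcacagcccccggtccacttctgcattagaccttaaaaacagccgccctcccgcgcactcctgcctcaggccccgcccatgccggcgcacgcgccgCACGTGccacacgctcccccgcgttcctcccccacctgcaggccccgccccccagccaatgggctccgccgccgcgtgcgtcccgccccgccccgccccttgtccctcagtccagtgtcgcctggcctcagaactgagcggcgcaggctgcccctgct
Ctsl: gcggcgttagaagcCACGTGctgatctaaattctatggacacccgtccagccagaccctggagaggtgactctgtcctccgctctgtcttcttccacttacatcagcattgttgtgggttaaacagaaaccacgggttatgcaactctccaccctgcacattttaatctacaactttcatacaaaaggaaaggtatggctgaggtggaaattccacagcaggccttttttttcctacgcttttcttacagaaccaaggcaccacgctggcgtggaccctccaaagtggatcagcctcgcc
Sqstm1: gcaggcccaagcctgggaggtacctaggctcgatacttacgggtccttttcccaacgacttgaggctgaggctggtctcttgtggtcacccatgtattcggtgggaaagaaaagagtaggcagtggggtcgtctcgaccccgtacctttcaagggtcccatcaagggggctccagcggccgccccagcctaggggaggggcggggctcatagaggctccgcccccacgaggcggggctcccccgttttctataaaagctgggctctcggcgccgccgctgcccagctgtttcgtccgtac
The E-box, a palindrome that reads the same on both strands, began 108 bases before the start of Bnip3 and 236 bases before the transcript start used for Ctsl. That Ctsl start lies inside the RefSeq gene (chr13:64361890-64370772, minus strand), whose outer end is further upstream, so that the whole Ctsl window and its E-box fall within the annotated gene. The Bnip3 and Sqstm1 windows begin upstream of their annotated genes. It was found in 2 of the 7 of these genes with a window, Bnip3 and Ctsl, and in 7.15% of all 32851 windows. Map1lc3a, Becn1 and Bnip3l had no entry. On either strand, ACGTG, the core of the hypoxia response element, was in the same 2 windows and in 19.6% of all windows, but the E-box contains these letters. The forkhead motif GTAAACA (3.65% of windows) and the GATA motif AGATAA (11.2%) were in none of the 7. These matches describe letters in a window and say nothing of whether a factor binds there.

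The clearest differences lay between the hearts with and without cancer. At the deposited scaling Bnip3 was more than 3-fold higher in both T+ libraries than in the matched T- libraries, and Ctsl was highest in the tumor heart. Map1lc3a, Map1lc3b, Gabarapl1, Sqstm1 and Becn1 were also higher in both T+ libraries than in both T- libraries (Becn1 by as little as 0.05 on the log2 scale, which turned to -0.10 under plain library size). Bnip3l stood apart from the rest, being high in the exercised tumor heart alone. Ulk1 and Tfeb had T+ and T- values that overlapped. In all, 7 of the 10 genes had both T+ libraries above both T- libraries, against 27.1% of the 14910 genes that reached the count minimum in any library. Under plain library size these were 4 genes, Map1lc3a, Map1lc3b, Bnip3 and Ctsl, against 9.08% of genes. There were 6, without Becn1, when sizes left out genes over 1% of a library (20.1% of genes) or used the cardiomyocyte markers (21.3%). With every library thinned to the smallest there were 8, Bnip3l being added (27.1%).

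**Figure D1:**
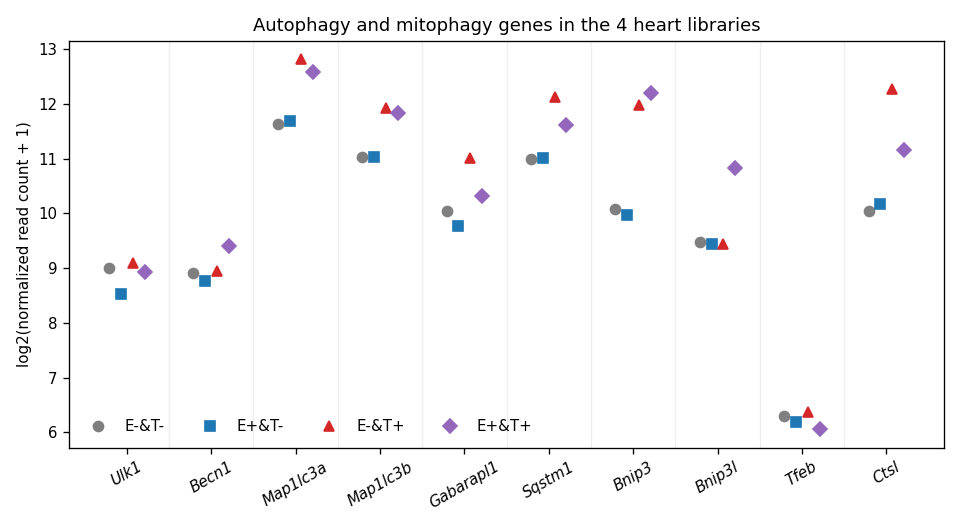
Deposited log2 values of the 10 genes in the 4 heart libraries, 1 point per library, with the genes ordered by role on the horizontal axis. Both T+ points lie above both T- points for 7 genes, while the Bnip3l point of E+&T+ lies above 3 nearly equal points and Tfeb is lowest throughout.

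Ulk1 encodes the kinase that starts autophagosome formation. Its log2 values were 9.01, 8.52, 9.09 and 8.94, from 448, 405, 616 and 448 reads. The exercised library was lowest and the other libraries lay close together. The value differed by -0.49 (95% counting interval -0.68 to -0.29) in exercised vs. control hearts and by 0.42 (0.22 to 0.62) in exercised tumor vs. exercised hearts, and neither reached 2-fold. Becn1, the Beclin 1 subunit of the class III phosphatidylinositol 3-kinase complex, had log2 values of 8.90, 8.77, 8.95 and 9.41 in the same order. Only the exercised tumor heart was set off, by 0.64 (0.46 to 0.81) from the exercised heart and by 0.46 (0.29 to 0.63) from the tumor heart. Becn1 (chr11:101288258-101302286, minus strand) overlaps Cntd1 on the opposite strand, and Cntd1 was listed with 397, 447, 509 and 602 reads against 417, 483, 561 and 622 for Becn1. Whether strand was used in counting is not given in the sources used here, so the reads of these genes cannot be told apart. The partners that overlap Map1lc3b (Zcchc14), Sqstm1 (Mrnip) and Gabarapl1 (1700101I11Rik) had at most 92, 28 and 67 reads in a library.

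The ATG8 proteins coat the autophagosome membrane and recruit cargo. Map1lc3a, which encodes LC3A, had log2 values of 11.64, 11.69, 12.82 and 12.58, or 3184, 3308, 7230 and 6139 normalized reads. Both T+ libraries were well above both T- libraries, which were nearly equal. Map1lc3a rose 2.27-fold in tumor vs. control hearts (log2 change 1.18, 1.12 to 1.25) and was 0.89 (0.83 to 0.95) higher in exercised tumor vs. exercised hearts, short of 2-fold. Map1lc3b, which encodes the widely used autophagosome marker LC3B, had log2 values of 11.04, 11.03, 11.93 and 11.83. The same division by cancer was seen, with differences of 0.89 (0.82 to 0.97) without exercise and 0.80 (0.72 to 0.88) with it, both under 2-fold. Under plain library size the differences with exercise were 0.17 for Map1lc3a and 0.08 for Map1lc3b. Gabarapl1, an ATG8 protein of the GABARAP branch, had log2 values of 10.04, 9.78, 11.02 and 10.33. It was highest in the tumor heart, with a difference of 0.98 (0.87 to 1.10) from the control heart, and 0.70 lower in the exercised tumor heart (-0.70, -0.80 to -0.60).

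Some comparisons need no scaling between libraries. The ratio of Map1lc3a to Map1lc3b reads in a library was 1.51 (1.43 to 1.61), 1.58 (1.5 to 1.67), 1.85 (1.78 to 1.92) and 1.69 (1.62 to 1.76). The tumor ratio was above both T- ratios beyond counting error, and that of the exercised tumor heart overlapped the exercised heart. The ratio of Map1lc3a to Gabarapl1 was 3.03 (2.81 to 3.27), 3.77 (3.51 to 4.06), 3.48 (3.32 to 3.64) and 4.79 (4.5 to 5.11). It was higher with exercise both without and with cancer. The other ATG8 genes measured, Gabarap and Gabarapl2, were 0.69 and 0.24 higher in tumor vs. control hearts, so that all 5 genes of the family were higher there. Summed over those 5 genes, the family had 7878 normalized reads in the control heart, about the same (7980) in the exercised heart, 15461 in the tumor heart and 13462 when exercise was added.

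Sqstm1 encodes p62, the receptor that carries ubiquitinated cargo to the autophagosome. Its log2 values were 11.00, 11.01, 12.13 and 11.61, or 2051, 2061, 4478 and 3129 normalized reads. The T- libraries were equal within counting error, the tumor heart was highest and the exercised tumor heart lay between. Sqstm1 rose 2.18-fold in tumor vs. control hearts (log2 change 1.13, 1.05 to 1.21), a difference that was 0.97 and so under 2-fold when scaled by plain library size. The difference was 0.60 (0.52 to 0.68) in exercised tumor vs. exercised hearts, and -0.52 (-0.58 to -0.45) in exercised tumor vs. tumor hearts. Among the other cargo receptors, Calcoco1 was 0.71 and 0.81 higher in the T+ library without and with exercise, and Optn 0.55 and 0.64 higher, while Nbr1 differed by 0.07 and -0.37. Under plain library size the Optn difference with exercise was below 0.

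The mitophagy receptors Bnip3 and Bnip3l, close relatives that act on the same organelle, did not share a pattern. Bnip3 had log2 values of 10.09, 9.97, 11.99 and 12.19, or 1088, 1005, 4058 and 4678 normalized reads. Both T+ libraries were high and both T- libraries low. Bnip3 rose 3.73-fold in tumor vs. control hearts (log2 change 1.90, 1.80 to 2.0) and 4.65-fold in exercised tumor vs. exercised hearts (2.22, 2.12 to 2.32). Bnip3l had log2 values of 9.47, 9.44, 9.43 and 10.84, or 710, 696, 691 and 1827 normalized reads. The first 3 libraries were alike, and only the exercised tumor heart was high. Bnip3l rose 2.64-fold in exercised tumor vs. tumor hearts (log2 change 1.40, 1.28 to 1.53) and 2.62-fold in exercised tumor vs. exercised hearts (1.39, 1.27 to 1.52). Under plain library size, which counts the globin reads of the exercised tumor heart in its total, these differences were 0.82 and 0.67, under 2-fold. The difference of Bnip3l in tumor vs. control hearts was -0.04 (-0.19 to 0.12). A pseudogene copy, Bnip3l-ps, is annotated, and how reads shared with it were counted is not given in the sources used here.

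The ratio of Bnip3 to Bnip3l reads within a library, which no scaling can move, was 1.53 (1.38 to 1.7), 1.44 (1.32 to 1.59), 5.88 (5.45 to 6.35) and 2.56 (2.42 to 2.71). Both T- ratios overlapped, and both T+ ratios were above them. The 9 mitophagy genes outside the 10 had a median of 0.02 in tumor vs. control hearts, with 5 higher and 4 lower. In exercised tumor vs. exercised hearts their median was 0.06, with 6 higher and 3 lower. Among them Pink1, the kinase that marks damaged mitochondria, was 0.26 and 0.46 higher in the T+ library without and with exercise. Bcl2l13 differed by -0.39 and 0.02, and Mul1 by -0.29 and 0.16. Under plain library size the Pink1 difference with exercise was below 0. The receptor Fundc1 differed by 0.42 and -0.28 at the deposited scaling.

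**Figure D2:**
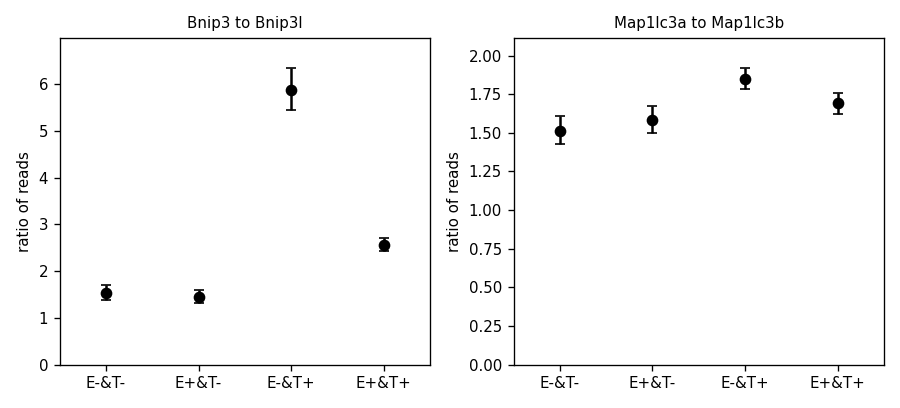
Ratio of reads of Bnip3 to Bnip3l (left) and of Map1lc3a to Map1lc3b (right) within each heart library, with bars for the 95% counting interval. The Bnip3 to Bnip3l ratio is 5.88 in E-&T+ and 2.56 in E+&T+, above 1.53 and 1.44 in the T- libraries, while the Map1lc3a to Map1lc3b ratio stays between 1.51 and 1.85.

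The erythroid markers moved with Bnip3l. Of the 8 markers 7 had a value, and all 7 were at least 2-fold higher in the exercised tumor heart than in the tumor heart (median log2 difference 4.19) and than in the exercised heart (3.52). Their summed level was 461046 to 479139 normalized reads in the first 3 libraries and 3246389 in the exercised tumor heart. Alas2, the heme synthesis enzyme of red cells and a defining marker with Hba-a1 and Hbb-bs, had 1789, 1599, 2135 and 14331 normalized reads. No defining marker was at 0 in any library. The 6 brown adipocyte markers summed to 3161, 3175, 2776 and 4808 normalized reads, and Ucp1 among them was listed with 0 reads in the first 3 libraries and 814 in the exercised tumor heart, whereas Dio2 was higher in the tumor heart (317) than in the exercised tumor heart (149). The 8 white adipocyte markers summed to 2508, 611, 439 and 2670, and so were as high in the control heart, where Bnip3l was low. The part of red cell or fat RNA in the Bnip3l value was not tested.

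**Figure D3:**
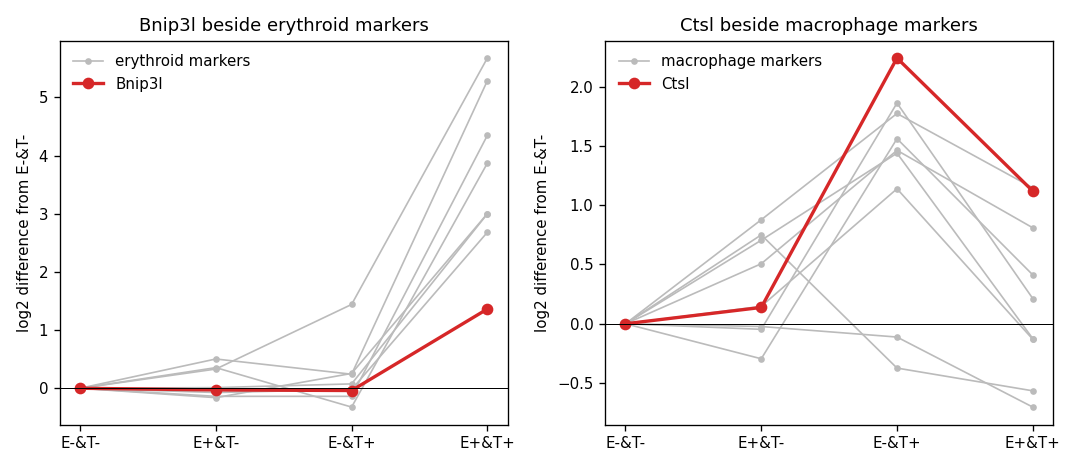
Log2 difference from E-&T- across the 4 libraries for Bnip3l with the 7 erythroid markers (left) and for Ctsl with the 8 macrophage markers (right), on log2(normalized read count + 1). The erythroid markers and Bnip3l are high in E+&T+, and Ctsl is highest in E-&T+, where 6 of the 8 macrophage markers are at least 2-fold above E-&T-.

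Tfeb, the transcription factor for autophagy and lysosome genes, was the lowest of the 10 in every library. It had log2 values of 6.30, 6.20, 6.38 and 6.06, from 68, 80, 93 and 60 reads. These values lay close together, and each of the 4 counting intervals held 0. In tumor vs. control hearts the difference was 0.07 (-0.39 to 0.55), so a change of less than about that width was not detectable at this depth. Ctsl had the widest range of the 10, with log2 values of 10.04, 10.17, 12.28 and 11.16, or 1049, 1154, 4959 and 2279 normalized reads. The T- libraries were low, the exercised tumor heart was intermediate and the tumor heart was highest. Ctsl rose 4.72-fold in tumor vs. control hearts (log2 change 2.24, 2.14 to 2.34) and was lower by a log2 difference of -1.12 (-1.19 to -1.05) in exercised tumor vs. tumor hearts, a fall past 2-fold. It was 1.97-fold higher in exercised tumor vs. exercised hearts (0.98, 0.88 to 1.08), just under the threshold.

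Genes with a pattern like that of Ctsl were then sought. Over the 4 libraries, the closest of 7068 genes (those averaging 100 or more normalized reads) was Tmem176a, at a Euclidean distance of 0.120 between log2 values taken from each gene's own mean. S100a6 followed at 0.153 and Ugt1a6b at 0.167, the latter one of a family of genes that share sequence, so that its count is uncertain. The log2 values of S100a6 were 10.51, 10.71, 12.78 and 11.49. With 4 libraries many genes can be close, and the distances are a description.

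Macrophage and fibroblast markers as lists moved with Ctsl in tumor vs. control and in exercised tumor vs. tumor hearts. In exercised tumor vs. exercised hearts they did not. Ctsl was 0.98 higher there, while the median log2 difference was -0.01 for macrophage markers (4 of 8 higher). For fibroblast markers it was -0.17 (2 of 7 higher). The 8 macrophage markers summed to 3215, 4114, 7134 and 3874 normalized reads, highest in the tumor heart, and 6 of the 8 were at least 2-fold higher in tumor vs. control hearts. All 8 were lower in the exercised tumor heart than in the tumor heart, 4 of them at least 2-fold. The defining markers did not move as one, with 89.6, 86.7, 328 and 104 normalized reads for Cd68, 57.3, 97, 44 and 38.4 for Adgre1, and 1003, 987, 928 and 616 for Csf1r. The 7 fibroblast markers summed to 24605, 28834, 51047 and 32556, and 3 were at least 2-fold higher in tumor vs. control hearts. Neutrophil markers were high in both T+ libraries, with a sum of 3180 in the tumor heart and 6111 in the exercised tumor heart against 124 and 84 in the T- libraries. The part of these cell types in the Ctsl values was not tested.

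The order of the 10 genes by reads began with Map1lc3a and ended with Tfeb in all 4 libraries. In the control heart it ran Map1lc3a, Map1lc3b, Sqstm1, Bnip3, Gabarapl1, Ctsl, Bnip3l, Ulk1, Becn1 and Tfeb. Counting error did not separate Map1lc3b from Sqstm1, Bnip3 from Gabarapl1, Gabarapl1 from Ctsl or Ulk1 from Becn1 there. In the tumor heart Ctsl stood at rank 2 and Bnip3 at rank 4, and Bnip3 with Map1lc3b and Ulk1 with Becn1 were not separated. In the exercised tumor heart Bnip3 was at rank 2 and Bnip3l at rank 6, above Gabarapl1, and every neighbor differed beyond counting error. In the exercised heart only Map1lc3b and Sqstm1 were not separated. With the globin reads left out of the totals, the 10 genes together took 1784, 1718, 3682 and 3057 RPM, so that their sum was higher in both T+ libraries.

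Set out by comparison, exercise without cancer (exercised vs. control hearts) changed 0 of the 10 genes, where 12.3% of the 13937 genes tested were called (5.88% upward and 6.40% downward), from 1 library per group and without a test. The 10 differences had a median of -0.07 against 0.00 over all genes tested, with 3 genes higher and 7 lower. Their sizes were small, from -0.49 for Ulk1 to 0.14 (0.01 to 0.26) for Ctsl, and 7 of the 10 counting intervals held 0. Exercise with cancer (exercised tumor vs. tumor hearts) changed 2, Bnip3l upward and Ctsl downward, where 19.4% of 14363 genes were called, 9.39% upward and 10.0% downward. The median was -0.19 against -0.01, and 3 genes were higher and 7 lower. Beyond Bnip3l and Ctsl the values ran from -0.70 for Gabarapl1 to 0.46 for Becn1, and Bnip3 differed by 0.21 (0.14 to 0.27). The share of 2 in 10 was near this background, and above the 13.5% found with a minimum of 16.

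Cancer without exercise (tumor vs. control hearts) changed 4 of the 10 genes, all upward: Ctsl, Bnip3, Map1lc3a and Sqstm1. Of the 14317 genes tested 27.6% were called, 14.6% upward and 13.1% downward. The median of the 10 was 0.94 against -0.01 over all genes, and 9 were higher. The 89 other pathway genes tested had a median of 0.07, and the 10 were chosen with earlier results of these data known. Gabarapl1 and Map1lc3b were just short of 2-fold, and Ulk1, Becn1, Bnip3l and Tfeb had intervals that held 0. Cancer with exercise (exercised tumor vs. exercised hearts) changed 2, Bnip3 and Bnip3l, both upward, where 23.0% of 14289 genes were called (12.0% upward and 11.1% downward), so that the share of 2 in 10 was again near the background (17.4% with a minimum of 16). The median was 0.72 against -0.01, 9 genes were higher, and 9 intervals lay above 0. The 4 comparisons share libraries in pairs, and they are set side by side for that reason.

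**Figure D4:**
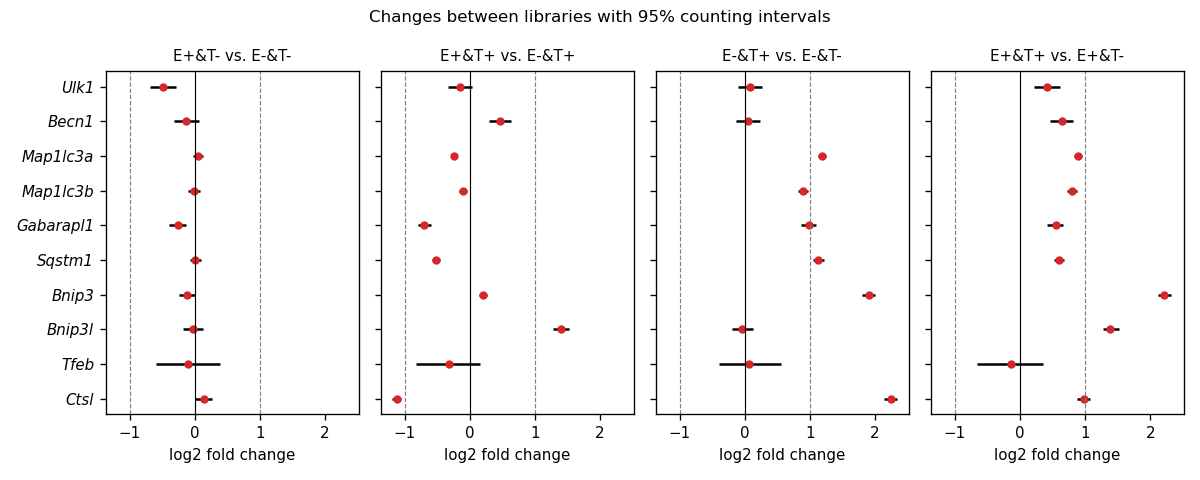
Log2 fold change of the 10 genes in each of the 4 comparisons, with bars for the 95% counting interval and dashed lines at a 2-fold change. Exercise without cancer leaves all 10 points within the lines, while cancer without exercise puts Ctsl, Bnip3, Map1lc3a and Sqstm1 beyond the upper line.

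At the deposited scaling, the exercise difference with cancer minus that without cancer was past 2-fold for 2 genes. It was 1.43 (counting SE 0.10) for Bnip3l and -1.26 (0.07) for Ctsl on the log2 scale. Next came Becn1 with 0.59 (0.13), Sqstm1 with -0.52 (0.06) and Gabarapl1 with -0.44 (0.08). Ulk1 differed by 0.34 (0.13), Bnip3 by 0.32 (0.07), Map1lc3a by -0.29 (0.04), Tfeb by -0.21 (0.34) and Map1lc3b by -0.09 (0.06), and of all 10 only Tfeb and Map1lc3b lay within 2 counting SE of 0. Under plain library size the count past 2-fold was 3, for Ctsl, Sqstm1 and Gabarapl1, and Bnip3l was no longer among them. The exercise differences with and without cancer were then 0.82 and -0.05 for Bnip3l and -1.71 and 0.12 for Ctsl. They were -1.10 and -0.01 for Sqstm1, -1.28 and -0.28 for Gabarapl1, -0.13 and -0.15 for Becn1, and -0.69 and -0.03 for Map1lc3b. With 1 library per group, none of these differences could be tested.

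The pathway was described further with 90 other genes of autophagy, mitophagy and the lysosome, all of which had a value and 89 of which were tested in each comparison. In tumor vs. control hearts 3 rose and 4 fell, and the median was 0.07, with 53 higher and 36 lower. The 3 that rose were Trp53inp1 by 2.25 (1.90 to 2.65), which encodes a p53 target that binds ATG8 proteins, Vamp8 by 1.24 (1.02 to 1.46), a membrane fusion protein of the autophagosome and lysosome, and Npc2 by 1.01 (0.91 to 1.11), a lysosomal cholesterol carrier. Rubcn, an inhibitor of the Becn1 complex, fell by 1.47 on the log2 scale (-1.90 to -1.07), Mitf, a relative of Tfeb, by 1.14 (-1.33 to -0.95), and Pik3r4, a subunit of the complex of Becn1, by 1.01 (-1.40 to -0.65). Ulk2, a paralog of Ulk1, also fell, by 1.01. Thus 7 of 89 were called, or fewer than the background share. Npc2, Pik3r4 and Ulk2 lay at the threshold, and the calls depended on the processing. There were 3 up and 2 down with a pseudocount of 4 and under scaling by the median of ratios. Plain library size gave 2 up and 5 down.

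By role, the 26 lysosome genes had a median of 0.28 in tumor vs. control hearts, with 21 higher, and of 0.27 over the 25 without Ctsl. The protease Ctsd was 0.83 (0.77 to 0.88) higher and the membrane protein Lamp2 0.69 (0.61 to 0.78) higher. Cargo receptors had a median of 0.34 with 6 of 7 higher (0.21 with 5 of 6 higher without Sqstm1), whereas the 17 genes of membrane source and conjugation, the machinery that attaches ATG8 proteins, had a median of -0.06 with 8 higher. The regulators had a median of -0.23 with 5 of 13 higher. In exercised tumor vs. exercised hearts the ATG8 family had a median of 0.62, the lysosome genes 0.27 (0.23 without Ctsl) and the conjugation genes -0.25. The cargo receptors had a median of 0.60, which was the value of Sqstm1 itself, with 4 of 7 higher, and of 0.14 with 3 of 6 higher without Sqstm1. These medians with exercise hold at the deposited scaling, where the median of all genes was -0.01. It was -0.74 under plain library size, a shift larger than the ATG8, cargo receptor and lysosome medians.

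**Figure D5:**
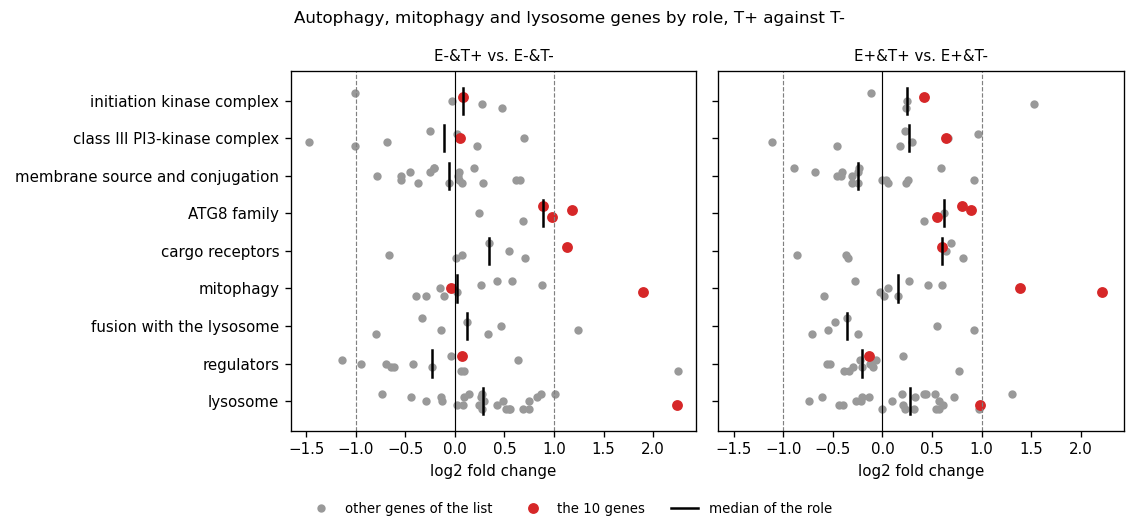
Log2 fold change of genes of the pathway list, grouped by role on the vertical axis, between the T+ and T- libraries without exercise (left) and with it (right). Red points are the 10 genes, grey points are the other genes of the list, black bars are the median of a role, and dashed lines mark a 2-fold change. The 5 ATG8 genes lie above 0 in both panels at the deposited scaling, and the conjugation genes scatter around or below it. Under plain library size Gabarapl1 turns to -0.17 in the right panel, and Gabarap and Gabarapl2 also turn below 0. Map1lc3a (0.17) and Map1lc3b (0.08) stay above it.

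In exercised tumor vs. exercised hearts 2 of the 89 other genes rose and 1 fell, where 23.0% of all genes were called. Atg13, a subunit of the Ulk1 complex, rose by 1.53 (1.30 to 1.76), while Rubcn fell by 1.11 on the log2 scale (-1.55 to -0.72). In exercised tumor vs. tumor hearts 4 of the 89 rose and 2 fell, where 19.4% of all genes were called, with a median of -0.06. Ctsf, another cathepsin, rose by 1.43 (1.12 to 1.77), Atg13 by 1.17 (0.96 to 1.38), Pik3r4 by 1.11 (0.75 to 1.49) and Mitf by 1.03. Trp53inp1 fell by 1.40 on the log2 scale (-1.69 to -1.13) and Epg5, a tether of the autophagosome to the lysosome, by 1.09 (-2.10 to -0.26). The lysosome genes had a median of -0.20 there, with 6 of 26 higher. In exercised vs. control hearts the 1 gene called was Gla, a lysosomal galactosidase, with a log2 difference of -1.24 whose interval held 0 (-2.89 to 0.06, from 7 and 14 reads) and which was not called at a pseudocount of 4, against 12.3% of all genes. All 5 genes of the Ulk1 complex were lower (median -0.21), but the counting intervals of Atg13 (-0.38 to 0.19) and Atg101 (-0.36 to 0.14) held 0. Over all genes tested, 6918 of 13937 were lower.

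The scaling between libraries decided some of these values. Under plain library size, with the globin reads of the exercised tumor heart left in the total, the median of all genes was -0.60 in exercised tumor vs. tumor hearts and -0.74 in exercised tumor vs. exercised hearts. The differences of Ulk1, Becn1, Gabarapl1 and Sqstm1 in exercised tumor vs. exercised hearts then turned to -0.30, -0.08, -0.17 and -0.12, and that of Bnip3 in exercised tumor vs. tumor hearts to -0.38 and that of Becn1 to -0.13. All of these stayed above the shift of all genes. Gabarapl1 and Sqstm1 were then past 2-fold lower in exercised tumor vs. tumor hearts, at -1.28 and -1.10. Bnip3 and Ctsl kept their calls under each of the 9 alternatives in the comparisons in which they were called. Ctsl in exercised tumor vs. exercised hearts (0.98) was at 0.26 under plain library size and between 0.81 and 1.02 under the others, reaching 2-fold under scaling by the median of ratios and when thinned.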

How the data were processed

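The authors prepared QuantSeq 3′ mRNA libraries from heart RNA, aligned the reads with Bowtie2, counted them with bedtools and applied a quantile normalization of edgeR, per the paper's methods. The submitters' processing notes name Bowtie2, bedtools and the build mm10. Versions, the gene annotation and the use of strand are not given in the sources used here. The values they deposited are log2 values that include this normalization. There were no replicates.

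Whole reads were recovered by inverting a quantile adjustment of negative binomial counts with a pseudocount of 1. The fitted dispersion was 0.149, deposited values were returned to within 0.000526, and sizes from the fit were within 0.127% of TMM sizes. Among 25460 values of 5 to 99 reads, 100% were whole to a tolerance of 0.1. Library totals were 6595408, 8477146, 9532896 and 11545945 reads for the control, exercised, tumor and exercised tumor hearts.

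A log2 fold change is a difference of deposited values. It was called at a fold change of at least 2 with at least 4 normalized reads in at least 1 of the 2 libraries, a reading of the study's definition, which does not state the number of libraries. The 95% Clopper-Pearson intervals describe counting error alone, since without molecular identifiers PCR copies cannot be recognized. On a duplicated symbol the entry with the highest mean was used. The recovery and the calls were checked on simulated data.

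The 10 genes, the list of 90 other pathway genes, the marker lists and the motifs were chosen with earlier results of these data known. Of the 90, up to 3 called genes per direction and comparison, averaging 16 or more normalized reads, were named by rule, and 1 gene under this rule is not reported here. Ulk2, Mitf in E+&T+ vs. E-&T+, Gla and the fat markers Ucp1 and Dio2, and the uncalled genes of the list given with values, were named after their values were seen. The nearest patterns and the sums of the marker lists, with the first 3 markers of a list as the defining ones, also followed a rule. Of the marker lists, the summed level over the 4 libraries, in the order above, was 25602, 19288, 16822 and 24176 normalized reads for endothelial and 37.5, 28.9, 20.3 and 31.7 for lymphocyte markers.

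Gene positions and promoter windows are from RefSeq on GRCm38.p6. Alternatives covered the scaling, the count minimum, the pseudocount and the depth. The software was Python 3.11.15, with pandas 2.3.3, scipy 1.17.1, matplotlib 3.10.9 and numpy 2.4.6.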

Additional observations from a re-analysis of the deposited data

Results flagged for a closer look

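Some of the 10 genes differed in opposite directions in paired comparisons. Each group had 1 library, so none of these differences between comparisons was tested.

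The change with exercise was opposite with and without cancer for 6 genes. Bnip3l, the mitophagy receptor, was 1.40 higher on the log2 scale with cancer and differed by -0.03 without it, and Ctsl, the lysosomal protease, was lower by 1.12 (-1.12) with cancer and differed by 0.14 without it. Becn1 differed by 0.46 with cancer and -0.13 without, and Bnip3 by 0.21 and -0.12. Map1lc3a differed by -0.24 with cancer and 0.05 without, and Sqstm1 by -0.52 and 0.01. Under plain library size this count was 3, since the values with and without cancer had the same sign for Becn1 (-0.13 and -0.15), Bnip3 (-0.38 and -0.13) and Sqstm1 (-1.10 and -0.01).

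The change with cancer was opposite with and without exercise for 2 genes. Bnip3l differed by 1.39 with exercise and -0.04 without it, and Tfeb by -0.14 and 0.07. The Tfeb values were -0.85 and -0.08 under plain library size. The counting interval held 0 for the value without cancer of Bnip3l, Bnip3, Becn1, Map1lc3a and Sqstm1, for the cancer difference of Bnip3l without exercise and for both values of Tfeb.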

How the results depend on the processing

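The 40 differences of the 10 genes were recomputed under 9 alternatives. Of the 360 values 301 stayed within the counting interval of the main value and 59 fell outside it. Another sign was taken by 20, none of them from a called value. Under plain library size, members called in exercised tumor vs. exercised hearts numbered 1 and genes with both T+ libraries above both T- libraries 4, and the other pathway genes called numbered 20 (all lower) in exercised tumor vs. tumor hearts and 26 (all lower) in exercised tumor vs. exercised hearts. Of all called genes 12.9% and 13.7% were then higher in these comparisons, against 48.4% and 52.0%, and 42.1% in tumor vs. control hearts against 52.7%. With sizes set without genes over 1% of a library, 41.3% of called genes were higher in exercised tumor vs. exercised hearts, the other pathway genes called were 2 in exercised vs. control hearts and 5 in exercised tumor vs. exercised hearts, and Sqstm1 was at 0.97 in tumor vs. control hearts. Thinning every library to the smallest, by 1 random draw, gave 3 and 6 in the same pair of comparisons and put Ctsl at 1.02 in exercised tumor vs. exercised hearts, a pseudocount of 4 gave 0 in exercised vs. control hearts, and scaling to the 8 cardiomyocyte markers gave 5 in exercised tumor vs. exercised hearts. Scaling by the median of ratios put Gabarapl1 in tumor vs. control hearts and Ctsl in exercised tumor vs. exercised hearts at 1.0, at the threshold. Over the whole data, calls in exercised vs. control hearts numbered 376 up and 406 down with a minimum of 16 and 1264 up and 1534 down with none, against 819 and 892. The cause of these shifts was not tested. The cardiomyocyte scaling and the count of genes with both T+ libraries above both T- libraries were chosen after seeing the data.

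No paired analysis was possible because the labels give 1 library per group and no replicate number; leaving out a library leaves its group empty. The spread between animals is unknown. Tfeb, with 60 to 93 reads, is the gene whose values depth limits most.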
